A study of Mus musculus with 272 samples.

Results

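The 52 genes described here encode the DNA replication machinery and were taken from a table of 15854 gene symbols by name alone: the origin recognition complex, the licensing factors, every symbol that starts with Mcm and a number, the origin firing factors, the replicative polymerases, the sliding clamp and its loader, the single-strand binding protein, the lagging-strand enzymes and ribonucleotide reductase. The rule uses no measured value, although the members were chosen with earlier results of these data known. All 52 passed the filter on low values in each comparison fitted over all stages. The libraries came from mouse (Mus musculus) oocytes and embryos at 8 stages: the germinal vesicle (GV) oocyte, the metaphase II (MII) egg, the zygote, the 2-cell, 4-cell and 8-cell embryo, the morula and the blastocyst. Each stage had 4 transcriptome libraries, each of a pool of 20 oocytes or embryos, and 3 sucrose gradients (A, B and C), each of about 100 oocytes or embryos and each cut into 10 fractions that were sequenced separately. Gradient lysates and sucrose contained cycloheximide, which holds ribosomes on the mRNA, and no stage received another treatment in the labels, which give no strain or age of the animals. Replicates were pools, and where nothing states that they came from separate animals the p-values measure only the spread between these pools.

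A cell prepares an origin of replication before S phase: the origin recognition complex (Orc1 to Orc6) and Cdc6 sit on the DNA, and Cdt1 brings in the ring-shaped helicase Mcm2 to Mcm7. Geminin (Gmnn) binds Cdt1 and blocks a second licensing. The kinase Cdc7 with its partner Dbf4, together with Ticrr, Cdc45 and the GINS complex, then switches the helicase on, and polymerases alpha, epsilon and delta copy the strands with the clamp Pcna and its loader Rfc1 to Rfc5. The first cleavages of the mouse embryo start from RNA and protein stored by the oocyte, and the embryo's own genome takes over transcription mainly at the 2-cell stage.

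Values are CPM, read counts scaled to the total of their own library, so a level is a share of that library. The RNA was selected by its poly(A) tail, and less RNA of a gene and shorter tails cannot be told apart in these libraries, nor can a change in one gene's RNA and a change in the total. Recovered read totals, in M reads, were 11.82 to 25.23 in the transcriptomes (median 18.04) and 0.01047 to 44.03 in the fractions (median 18.96). The lowest were fraction 1 of GV gradients A (0.01047) and B (0.02372) and of 4-cell gradient A (0.1784). The stage labels were checked with marker lists: 7 oocyte markers summed to 16851 to 19957 CPM in GV libraries and to 6.94 to 12.3 CPM in blastocysts, 5 2-cell markers summed to 1592 to 2224 CPM at the 2-cell stage, and 6 blastocyst markers to 2348 to 2860 CPM in blastocysts. Of 10 cumulus and granulosa cell markers 3 were in the table, with a summed level of at most 75.1 CPM (MII), and of 6 sperm markers 2 were, with at most 19.5 CPM (GV); their part in the results was not tested. Exons of 20 members overlapped another gene in the GENCODE mouse annotation of build GRCm38, and the counting is not stated to use strand. The overlap covered over 25% of the exonic bases in 3 members: Fen1 (78.8%, antisense Gm10143), Gins2 (67.3%, opposite-strand Gse1) and Orc2 (29.8%, opposite-strand Nif3l1), so reads of these genes and their partners cannot be told apart and their values are uncertain. Pcna has 2 named pseudogenes (Pcna-ps1, Pcna-ps2) whose reads may be shared with it.

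The transcriptomes were compared between consecutive stages with limma on log2(CPM + 1), which understates changes of low genes; a gene was called when its Benjamini-Hochberg adjusted p was under 0.05 and its change at least 1 on the log2 scale, that is 2-fold. From GV to MII, 10 of 52 replication genes rose and 12 fell, against 9.11% of 14642 genes higher and 25.3% lower (34.5% in either direction). From MII to zygote 4 rose and 2 fell (background 5.79% and 4.48%, together 10.3%). From zygote to 2-cell 4 rose and 14 fell, the reverse of the background, where 25.2% were higher and 8.71% lower (33.9% in all). From 2-cell to 4-cell 25 rose and 6 fell, against 31.8% and 32.9% of all genes (64.8% in all). From 4-cell to 8-cell limma called 0 members (background 0.451% higher and 2.14% lower), with 13 members at an unadjusted p under 0.05, and edgeR on the recovered reads also called 0, with 10 at such a p. From 8-cell to morula 2 rose and 2 fell (8.18% and 3.7%), and from morula to blastocyst 5 rose and 1 fell (18.8% and 7.97%).

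The members' median change was -0.38 from zygote to 2-cell, where the median of all genes was 0.37, and 0.87 from 2-cell to 4-cell, where that of all genes was 0.02. In the other transitions the members' median lay between -0.06 and 0.10 and that of all genes between -0.11 and 0.16. The summed level of the 52 genes was 6181 ± 78.9 CPM in GV oocytes (SD, n = 4), reached 8028 ± 221 CPM in zygotes, was 6038 ± 81.2 CPM at the 2-cell stage and 7148 ± 275 CPM at the 4-cell stage, and was 4966 ± 326 CPM in blastocysts. Single genes did not share this course. By their mean, 13 members were highest in the blastocyst, 8 each in GV, MII and 4-cell, 5 each in the zygote and at 2-cell, 4 at 8-cell and 1 in the morula, and 17 members were lowest at the 2-cell stage. The split of the calls depended on the scaling in every transition but that from 4-cell to 8-cell. With quantile normalization 15 members rose and 9 fell from GV to MII, 4 and 1 from MII to zygote, and 4 and 16 from zygote to 2-cell. It gave 23 and 7 from 2-cell to 4-cell, 1 and 2 from 8-cell to morula, and 3 and 4 from morula to blastocyst. With edgeR 14 rose and 12 fell from GV to MII, 5 and 1 from MII to zygote, and 4 and 19 from zygote to 2-cell. It gave 20 and 8 from 2-cell to 4-cell and 4 and 8 from morula to blastocyst. Quantile normalization moved the median of all genes from -0.11 to 0.16 (GV to MII), from 0.37 to -0.08 (zygote to 2-cell), from 0.02 to 0.22 (2-cell to 4-cell), from -0.11 to 0.00 (4-cell to 8-cell) and from 0.16 to -0.01 (morula to blastocyst); all changes above are on the main scale.

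**Figure D1:**
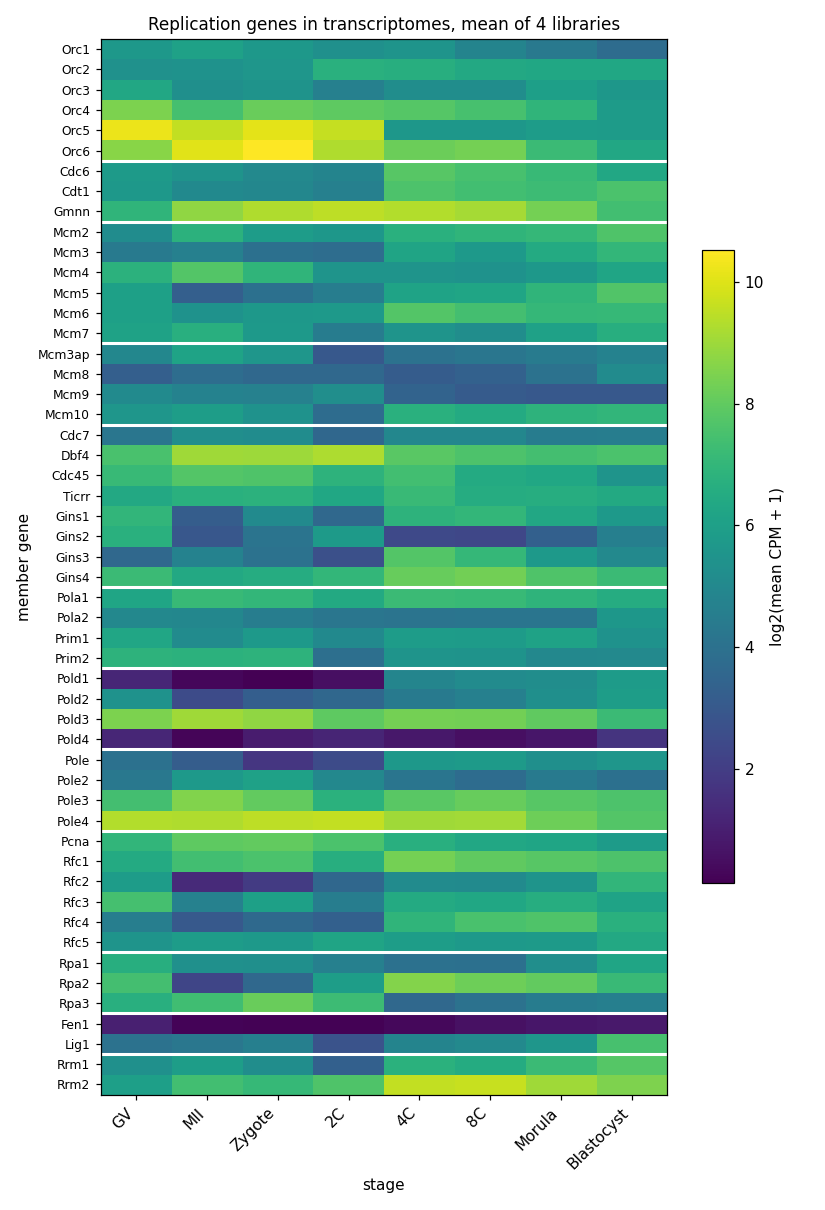
Mean transcriptome level of the 52 replication genes (rows, in the order of their roles, white lines between roles) at the 8 stages (columns), as log2(mean CPM + 1) of 4 libraries on a colour scale from dark (low) to yellow (high). Orc5 and Rpa3 are bright up to the 2-cell stage and dark after it, Cdc6, Cdt1 and Gins3 brighten at the 4-cell stage, and Fen1 and Pold4 are dark throughout.

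The 6 subunits of the origin recognition complex, which marks origins, did not move together. Orc5, an ATP-binding subunit, measured 690, 865, 838 and 749 CPM in the 4 2-cell libraries and 43.4, 40.2, 49.6 and 58.7 CPM in the 4 4-cell libraries. The groups did not overlap, and every earlier stage had a mean of at least 767 CPM and every later one of at most 57.7 CPM. Orc5 fell by 4.01 on the log2 scale between the 2-cell and 4-cell stages (SE 0.18, limma adjusted p = 1.2e-20). Orc6, which binds DNA beside the ring of the other subunits, measured 438, 386, 426 and 377 CPM in GV oocytes, 948, 1031, 1160 and 1092 CPM in MII eggs, and 1521, 1275, 1489 and 1601 CPM in zygotes. All MII values lay above all GV values, and all zygote values above all MII values. Its rise from GV to MII passed the test, that from MII to zygote did not reach 2-fold, and it passed as lower in 3 later transitions (zygote to 2-cell, 2-cell to 4-cell and 8-cell to morula), down to 80 ± 8.91 CPM in blastocysts. From 8-cell to morula it fell by 1.16 on the log2 scale (SE 0.12, limma adjusted p = 1e-08). Per kilobase of the longest annotated protein-coding transcript, Orc6 was the highest of the 52 genes in MII eggs (721 CPM per kb) and zygotes (1004 CPM per kb). Orc5 was the highest in GV oocytes (574 CPM per kb).

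Orc2 rose from zygote (47.3, 50, 51.9 and 39.8 CPM) to 2-cell (105, 95.4, 108 and 112 CPM) by 1.14 on the log2 scale (SE 0.15, limma adjusted p = 2.4e-08), a change of 0.83 in edgeR's fit, under 2-fold. Its mean was 78.7 to 99.7 CPM at the later stages. Orc4, another ATP-binding subunit, was at 350 ± 20.8 CPM in GV and 55.6 ± 10.8 CPM in blastocysts; it fell from morula to blastocyst by 1.08 on the log2 scale (SE 0.18, limma adjusted p = 3.7e-06), and by 0.97 without morula library B and 0.99 without blastocyst library C, just short of 2-fold. Orc3 and Orc4 were also called lower from GV to MII; without MII library A their changes were -0.99 and -0.86, and without MII library C that of Orc3 was -0.99. Orc1, the largest subunit, was called in none of the 7 transitions and had means from 66.5 ± 5.84 CPM in MII to 13 ± 2.96 CPM in blastocysts.

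The licensing factors and their inhibitor peaked at different stages in the transcriptome libraries. Cdc6, an ATPase that acts with the origin recognition complex, measured 35.1, 23.1, 26 and 24.8 CPM at the 2-cell stage and 260, 182, 233 and 222 CPM at the 4-cell stage. Cdt1, which carries the helicase to the origin, measured 29.4, 21.5, 20.3 and 26.1 CPM and then 226, 232, 144 and 180 CPM. Neither gene's groups overlapped, and both passed the test as higher at the 4-cell stage. Cdt1 stayed between 152 ± 21.7 and 189 ± 25.7 CPM from the 8-cell stage to the blastocyst, while Cdc6 had a mean of 79.8 ± 2.34 CPM in blastocysts; none of these later steps passed the test. Geminin, the inhibitor, was high before both in these libraries: it measured 128, 111, 124 and 121 CPM in GV and 408, 440, 505 and 431 CPM in MII, a rise of 1.87 on the log2 scale (SE 0.14, limma adjusted p = 6.7e-14). Its mean was 708 ± 81.7 CPM at the 2-cell stage and 164 ± 35.5 CPM in blastocysts, and from the 2-cell stage to the morula it was the highest of the 52 genes per kilobase, at 629 CPM per kb at the 2-cell stage and 290 CPM per kb in the morula. The gradient libraries did not show this order, and from GV to 2-cell Cdt1 had higher means there than Gmnn. In zygotes Cdt1 was at 448 ± 118 CPM and Gmnn at 84 ± 30 CPM in fractions 6 to 10. In fractions 1 to 5 they were at 377 ± 38.4 and 11.5 ± 6.19 CPM.

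The 6 subunits of the Mcm2 to Mcm7 helicase, which form 1 ring in equal numbers, were at unequal levels in the transcriptome libraries. Per kilobase, the highest subunit exceeded the lowest by 23.1 times in MII eggs (Mcm4 at 59.2 and Mcm5 at 2.56 CPM per kb), by 7.72 times in zygotes and by 4.77 times in GV oocytes. From the 2-cell stage on the ratio lay between 2.77 (morula) and 4.01 (4-cell). Mcm2 measured 34.6, 37.5, 32.2 and 38.1 CPM in GV and 131, 103, 111 and 94.6 CPM in MII, a rise of 1.59 on the log2 scale (SE 0.15, limma adjusted p = 1.2e-11). Mcm5 went the other way in the same libraries, from 65.9, 64.2, 63.2 and 62.1 CPM to 11.7, 9.36, 7.69 and 5.81 CPM, and passed the test as lower. Mcm4, the highest subunit per kilobase in MII, had 112 ± 6.54 and 212 ± 21.5 CPM and did not reach 2-fold. The MII gradient libraries put Mcm5 and Mcm4 in the reverse order. There Mcm5 had the highest mean CPM of the 6 subunits, in fractions 6 to 10 and in fractions 1 to 5. Mcm5 was at 302 ± 70.9 CPM and Mcm4 at 108 ± 40 CPM in fractions 6 to 10. For fractions 1 to 5 of gradients A, B and C, Mcm5 had 188, 242 and 317 CPM. Mcm4 had 28.1, 18.5 and 13.8 CPM in the same fractions.

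From 2-cell to 4-cell, 5 of the 6 helicase subunits were called higher, as were 31.8% of all genes (64.8% called in either direction), and the median change was 1.35 for the 6 and 0.02 for all genes. Mcm3 had means of 13.3 ± 2.83 and 71.3 ± 16.7 CPM, Mcm6 of 51.1 ± 15.7 and 214 ± 27.5 CPM, and Mcm5 of 22.3 ± 3.49 and 69.5 ± 19.6 CPM. Mcm4 had 44 ± 5.29 and then 44 ± 10.5 CPM and was not called; it had been called lower from zygote (119 ± 12.3 CPM) to 2-cell. Mcm7 was called at a change of 1.01, which was 0.85 without 2-cell library F, 1.00 without 2-cell library H and 0.93 without 4-cell library A or B, each short of the threshold. In the step from MII to zygote Mcm7 fell by 1.02 on the log2 scale (SE 0.18, limma adjusted p = 5e-05), and by 0.88 without zygote library C, 0.93 without MII library A and 0.95 without MII library C. By the blastocyst Mcm2 reached 228, 192, 208 and 181 CPM and Mcm5 271, 175, 227 and 155 CPM, the highest stage for both in the transcriptome libraries. In fractions 1 to 5 Mcm5 had 940 ± 156 CPM in GV and 280 ± 25.5 CPM in blastocysts. In fractions 6 to 10 it had 944 ± 140 and 707 ± 216 CPM.

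Other genes named Mcm have other functions. Mcm10, which joins the active helicase, was at 12.8 ± 1.11 CPM at the 2-cell stage and 105 ± 26.9 CPM at the 4-cell stage and was called higher. Mcm9, a partner of Mcm8 in homologous recombination, measured 36.8, 36.4, 31.4 and 42.9 CPM at the 2-cell stage and 7.58, 21.9, 5.09 and 4.1 CPM at the 4-cell stage. Mcm9 fell there by 2.09 on the log2 scale (SE 0.33, limma adjusted p = 6.5e-07), with 4-cell library B above the other 3. Mcm8 was called higher from morula (15.3 ± 1.9 CPM) to blastocyst (33.7 ± 8.91 CPM) by 1.07, or by 0.90 without blastocyst library D. Mcm3ap, an RNA export factor that carries the name of Mcm3, fell from zygote (49.4, 41.4, 43.8 and 52.1 CPM) to 2-cell (9.24, 5.67, 6.6 and 6.04 CPM) by 2.61 on the log2 scale (SE 0.22, limma adjusted p = 2.4e-12). Its call as higher at the 4-cell stage (1.03) was below 2-fold without 4-cell library B (0.86), 2-cell library F (0.95) or 2-cell library H (0.98).

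Among the firing factors, the 4 subunits of GINS, which joins Cdc45 to the helicase, moved in opposite directions at the 4-cell stage. Gins3 measured 3.66, 6.74, 7.19 and 3.46 CPM at the 2-cell stage and 205, 219, 223 and 199 CPM at the 4-cell stage. It rose by 5.14 on the log2 scale (SE 0.19, limma adjusted p = 1.4e-23), the largest rise of any member in any transition on the log2(CPM + 1) scale, which understates the change of lower genes such as Pold1. Gins2 measured 81.3, 50.4, 43.2 and 43.7 CPM and then 3.92, 3.29, 7.39 and 2.58 CPM, and fell by 3.42 (SE 0.26, limma adjusted p = 3.9e-14). Gins1 (11.3 ± 1.96 to 115 ± 10.1 CPM) and Gins4 (128 ± 28.1 to 275 ± 26.1 CPM) were called higher. After the 4-cell stage Gins3 was lower again: from 8-cell (141, 138, 118 and 137 CPM) to morula (51.2, 61, 50.2 and 47.2 CPM) it fell by 1.34 on the log2 scale (SE 0.19, limma adjusted p = 1.2e-06).

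The GINS genes had also split in the oocyte. From GV to MII, Gins1 went from 136, 119, 125 and 118 CPM to 6.84, 8.81, 8.63 and 7.66 CPM, a fall by 3.81 on the log2 scale (SE 0.16, limma adjusted p = 2.6e-21). Gins2 went from 102, 112, 108 and 99.1 CPM to 9.16, 6.75, 7.04 and 3.91 CPM, a fall by 3.83 (SE 0.26, limma adjusted p = 5.6e-15). Gins3 was called higher in the same step, at 11.4 ± 2.93 and 25.6 ± 4.19 CPM. From MII to zygote Gins1 rose by 1.92 (SE 0.16, limma adjusted p = 1.1e-11) to 32.9 ± 1.92 CPM, and Gins2 by 1.20 (SE 0.26, limma adjusted p = 0.00062), or 1.00 without MII library D, just under 2-fold. Gins2 was also called higher from zygote to 2-cell (1.65, SE 0.26, limma adjusted p = 1.9e-06), from 8-cell to morula (1.02, SE 0.26, limma adjusted p = 0.0031) and from morula to blastocyst (1.22, SE 0.26, limma adjusted p = 0.00023). The latter 2 calls ended at 0.88 without 8-cell library A, 0.91 without morula library B, and 0.96 without blastocyst library A. As stated above, Gins2 shares most of its exonic bases with an opposite-strand gene. The gradient libraries did not show its large fall from GV to MII. In fractions 1 to 5 its mean was 140 ± 24.6 CPM in GV and 201 ± 9.45 CPM in MII. In fractions 6 to 10 it was 109 ± 13.1 and 85.8 ± 26.9 CPM. Gins4 differed between the kinds of library too. In transcriptomes it had 145 ± 8.56 CPM in GV and 83.2 ± 14.9 CPM in MII and was not called. In fractions 1 to 5 it had 90.1 ± 10.3 and 881 ± 52.1 CPM, and in fractions 6 to 10 85.8 ± 3.76 and 526 ± 108 CPM.

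Dbf4, which activates the kinase Cdc7, measured 187, 175, 181 and 191 CPM in GV and 521, 489, 545 and 552 CPM in MII, a rise of 1.51 on the log2 scale (SE 0.15, limma adjusted p = 8.6e-11). It stayed at 504 ± 17.1 CPM in zygotes and 603 ± 38.7 CPM at the 2-cell stage and was called lower at the 4-cell stage, at 231 ± 25.8 CPM. Cdc7 itself had means from 11 ± 2.04 CPM (2-cell) to 37.6 ± 7.88 CPM (MII); its call as higher in MII ended without MII library B (0.95). Cdc45 and Ticrr were called in none of the 7 transitions. Cdc45 had its highest mean in MII (211 ± 21.6 CPM) and its lowest in blastocysts (44.8 ± 3.61 CPM), and Ticrr ranged between 79.4 ± 9.48 CPM (2-cell) and 144 ± 11.9 CPM (4-cell).

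**Figure D2:**
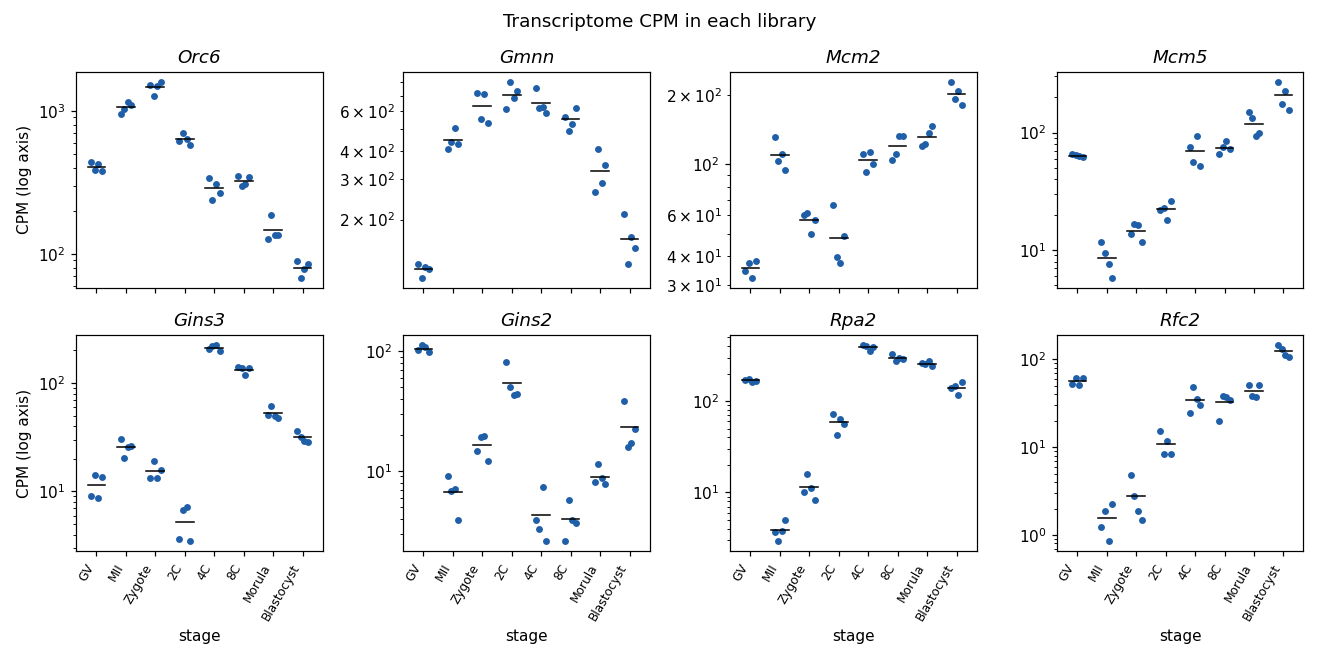
CPM of 8 replication genes in each of the 4 transcriptome libraries of a stage (points; line, mean; log axis, scaled separately for each gene). Orc6 is highest in zygotes and Gmnn at the 2-cell stage, Gins3 is highest at the 4-cell stage, and Gins2, Rpa2, Rfc2 and Mcm5 drop between GV and MII.

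Polymerase alpha with primase lays the first primers. Prim2, the large primase subunit, measured 108, 113, 102 and 130 CPM in zygotes and 12.8, 13.6, 18.3 and 11.2 CPM at the 2-cell stage. It fell by 2.95 on the log2 scale (SE 0.19, limma adjusted p = 7.8e-16), the largest fall of a member in that step on this scale, and was called higher at the 4-cell stage, at 44.2 ± 10.3 CPM. Pola2, the regulatory subunit, rose from morula (21.5, 19.9, 10.6 and 16 CPM) to blastocyst (51.2, 50.6, 44.3 and 47.3 CPM) by 1.50 (SE 0.19, limma adjusted p = 6.3e-08). The catalytic subunit Pola1 was called in none of the 7 transitions and ranged from 73.2 ± 10.2 CPM (GV) to 145 ± 35.3 CPM (4-cell). Prim1, the catalytic primase subunit, was called lower from GV (76.1 ± 4.73 CPM) to MII (34.6 ± 9.27 CPM) and in no other step.

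The catalytic subunits of polymerases delta and epsilon were both called higher at the 4-cell stage. Pold1, the catalytic subunit of delta, measured 0.148, 0, 0.117 and 0.0556 CPM in zygotes, at most 3 reads in a library, then 0.642, 0.613, 0.338 and 0.221 CPM at the 2-cell stage and 17.3, 39.4, 29.3 and 26.3 CPM at the 4-cell stage. From 2-cell to 4-cell it rose by 4.28 on the log2 scale (SE 0.22, limma adjusted p = 2.7e-19). Its partner Pold3 had means of 448 ± 40.9 CPM in zygotes and 246 ± 43 CPM at the 2-cell stage and was called in none of the 7 transitions. Pole, the catalytic subunit of epsilon, fell from MII (9.6, 10.7, 4.08 and 7.77 CPM) to zygote (2.42, 3.6, 1.98 and 1.39 CPM) by 1.41 (SE 0.23, limma adjusted p = 1.5e-05), and was called higher at the 4-cell stage, at 50.1 ± 13 CPM. Pole4, a small histone-fold subunit of epsilon, had its highest mean at the 2-cell stage (765 ± 61.5 CPM) and its lowest in blastocysts (214 ± 45 CPM). In zygotes Pole stood at 0.328 CPM per kb and Pole4 at 406 CPM per kb. Pole2, the second-largest subunit, rose from GV (18.3, 20, 20.1 and 15.5 CPM) to MII (42.5, 46.3, 67.9 and 52.8 CPM) by 1.44 (SE 0.19, limma adjusted p = 2.7e-08) and was called lower from zygote to 2-cell. Pold4, the smallest delta subunit, had no mean above 2.17 CPM.

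The subunits of the clamp loader, which opens the Pcna ring, also differed. Rfc2 measured 52.1, 62, 51.1 and 62.2 CPM in GV and 1.23, 1.9, 0.844 and 2.27 CPM in MII, and fell by 4.53 on the log2 scale (SE 0.24, limma adjusted p = 5.2e-18). It rose from zygote (2.76 ± 1.51 CPM) to 2-cell (10.9 ± 3.32 CPM) by 1.71 (SE 0.24, limma adjusted p = 2.4e-07) and from morula (50.5, 38.2, 37 and 51.2 CPM) to blastocyst (145, 131, 113 and 107 CPM) by 1.47 (SE 0.24, limma adjusted p = 5.2e-06). Rfc1, the large subunit, had 87.6 ± 3.89 CPM in GV and 163 ± 6.39 CPM in MII, a change under 2-fold. Rfc3 rose from MII (25.1 ± 2.8 CPM) to zygote (64.3 ± 5.37 CPM) by 1.33 (SE 0.18, limma adjusted p = 6.1e-07), after a called fall from GV (172 ± 10.6 CPM). Rfc4 went from 7.44, 8.43, 8.12 and 11.2 CPM at the 2-cell stage to 144, 123, 121 and 96.3 CPM at the 4-cell stage, a rise of 3.64 (SE 0.18, limma adjusted p = 1.6e-19). Rfc5 was called in no transition. Pcna itself was called in no transition either: its mean was 258 ± 15.3 CPM in zygotes, its highest stage, and 55.8 ± 8.71 CPM in blastocysts.

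RPA coats single-stranded DNA as a trimer, and its 3 genes had 3 different courses. Rpa2 measured 172, 173, 164 and 165 CPM in GV and 3.72, 2.9, 3.75 and 5.02 CPM in MII, the largest fall of any member in any transition on the log2(CPM + 1) scale (-5.15, SE 0.16, limma adjusted p = 6.8e-25). It then rose in 3 successive steps, to 11.4 ± 3.38 CPM in zygotes (1.34, SE 0.16, limma adjusted p = 3.3e-08), 58.9 ± 12.7 CPM at the 2-cell stage (2.28, SE 0.16, limma adjusted p = 9.7e-15) and 389 ± 22.9 CPM at the 4-cell stage, where it was called higher again. Rpa3 had a higher mean CPM than Rpa2 from MII to the 2-cell stage and a lower one at the other stages, with 103 ± 15.8 CPM in GV. Rpa3 measured 128, 169, 139 and 172 CPM at the 2-cell stage and 16, 8.64, 14.5 and 6.33 CPM at the 4-cell stage. This was a fall by 3.70 (SE 0.22, limma adjusted p = 1.4e-17), after its highest mean in zygotes (285 ± 44.3 CPM). Per kilobase, Rpa3 and Rpa2 stood at 425 and 6.31 CPM per kb in zygotes and at 17 and 215 CPM per kb at the 4-cell stage. Rpa1, the largest subunit, was lowest at the 8-cell stage (10.6, 20.6, 11.6 and 15.5 CPM) and rose to the morula (39.8, 36.1, 37 and 36.5 CPM) by 1.34 (SE 0.18, limma adjusted p = 7e-07).

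Of the lagging-strand enzymes, Lig1, which seals Okazaki fragments, fell from zygote (23.1, 24.5, 22.2 and 23 CPM) to 2-cell (6.93, 5.36, 6.77 and 4.49 CPM) by 1.83 on the log2 scale (SE 0.17, limma adjusted p = 2.6e-11). It was called higher at the 4-cell stage and rose from morula (35.2, 49, 43.3 and 57.9 CPM) to blastocyst (174, 141, 205 and 188 CPM) by 1.92 (SE 0.17, limma adjusted p = 2.3e-11). Fen1, the flap nuclease of the same step, had no mean above 1.05 CPM at any stage, and most of its exonic bases overlap an antisense gene. Rrm1, the large subunit of ribonucleotide reductase, which makes deoxynucleotides, fell from zygote (35.4, 39, 33 and 38.7 CPM) to 2-cell (9.11, 4.67, 13.3 and 8.69 CPM) by 1.99 (SE 0.21, limma adjusted p = 4.8e-10) and rose to the 4-cell stage (109, 89.7, 105 and 126 CPM) by 3.51 (SE 0.21, limma adjusted p = 4e-17). The small subunit Rrm2 was not called in the first of these steps, with 136 ± 10.7 and 203 ± 42.7 CPM, and was called higher in the second, at 749 ± 47.1 CPM.

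Upstream sequence is shown for 4 genes that rose from the 2-cell to the 4-cell stage and for Orc5, which fell most, because E2F factors bind many promoters of replication genes. A RefSeq table of build GRCm38.p6, which is not the GRCm39 build named in the submitters' processing notes, held the start-site region of 44 of the 52 members, and Mcm4, Gmnn, Gins1, Gins2, Gins4, Pole, Prim2 and Rfc2 were not among them. The motif TTTNNCGC, read on both strands, was searched from 250 bases before to 50 bases after the start site, and overlapping matches were kept. It was present in 17 of 44 members (38.6%) and in 1602 of 27025 genes of the table (5.93%). By the transcriptome calls from 2-cell to 4-cell, 10 of 20 members that rose, 0 of 5 that fell and 7 of 19 that were not called held it. The 200 bases that end just before the start site are given 5′ to 3′ on the gene's strand, with motif matches in capitals. They lie at chr11:98907951-98908150 (plus strand) for Cdc6, chr8:95633359-95633558 (plus) for Gins3, chr8:75109309-75109508 (plus) for Mcm5, chr1:128359706-128359905 (minus) for Mcm6 and chr5:22550339-22550538 (minus) for Orc5.
Cdc6: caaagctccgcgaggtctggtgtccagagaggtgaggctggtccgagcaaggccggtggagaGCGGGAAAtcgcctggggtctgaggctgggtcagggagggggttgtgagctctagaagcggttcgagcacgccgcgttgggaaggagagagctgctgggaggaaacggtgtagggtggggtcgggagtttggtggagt
Gins3: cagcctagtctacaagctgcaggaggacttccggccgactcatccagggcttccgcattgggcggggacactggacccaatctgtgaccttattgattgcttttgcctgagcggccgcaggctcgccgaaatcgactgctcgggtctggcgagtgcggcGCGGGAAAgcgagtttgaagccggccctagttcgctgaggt
Mcm5: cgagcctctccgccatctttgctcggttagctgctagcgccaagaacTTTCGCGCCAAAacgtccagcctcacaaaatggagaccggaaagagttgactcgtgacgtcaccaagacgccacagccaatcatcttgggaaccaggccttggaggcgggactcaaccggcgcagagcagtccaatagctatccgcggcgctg
Mcm6: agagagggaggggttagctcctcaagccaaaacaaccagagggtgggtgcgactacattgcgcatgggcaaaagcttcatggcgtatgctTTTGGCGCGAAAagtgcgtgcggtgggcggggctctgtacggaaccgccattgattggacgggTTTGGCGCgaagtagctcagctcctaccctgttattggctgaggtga
Orc5: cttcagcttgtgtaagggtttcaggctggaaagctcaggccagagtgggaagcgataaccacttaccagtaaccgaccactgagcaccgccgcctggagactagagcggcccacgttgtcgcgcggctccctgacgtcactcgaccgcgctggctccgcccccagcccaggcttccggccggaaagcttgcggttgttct
Cdc6 and Gins3 each have 1 match, Mcm5 a pair that overlap on opposite strands, and Mcm6 such a pair and another match nearer the start. Orc5 has none in this window. A match describes the letters only.

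Genes that work beside the machinery were counted from 2 further lists. Of 33 tested S-phase genes (fork protection, chromatin assembly, nucleotide supply), 11 rose and 8 fell from GV to MII (all genes 9.11% and 25.3%), 5 rose and 5 fell from zygote to 2-cell (25.2% and 8.71%), and 15 rose and 6 fell from 2-cell to 4-cell (31.8% and 32.9%). Rnaseh2a, a subunit of the nuclease that removes RNA from DNA, fell by 5.13 from GV to MII (SE 0.17, limma adjusted p = 3.3e-24), and Tyms, which makes thymidylate, by 4.40 (SE 0.14, limma adjusted p = 7.7e-25). From 2-cell to 4-cell Rnaseh2b rose by 4.34 (SE 0.19, limma adjusted p = 6.9e-21) and Tyms by 4.19 (SE 0.14, limma adjusted p = 7.2e-25), while Rrm2b, the alternative small subunit of ribonucleotide reductase, fell by 4.54 (SE 0.28, limma adjusted p = 6.4e-17). Of 18 cell-cycle kinase, cyclin and E2F or Rb family genes, 10 rose and 1 fell from zygote to 2-cell, where 25.2% of all genes were higher and 8.71% lower, and 3 rose and 9 fell from 2-cell to 4-cell, where 31.8% were higher and 32.9% lower. Ccne1, the cyclin that drives entry into S phase, rose by 5.13 from zygote to 2-cell (SE 0.22, limma adjusted p = 9e-21), and E2f5 fell by 4.89 from 2-cell to 4-cell (SE 0.17, limma adjusted p = 4.5e-24).

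The gradients give the position of each RNA. Fractions 6 to 10 are called heavy and 1 to 5 light; the labels do not state the direction of numbering. For each gradient the mean CPM of the 5 heavy and of the 5 light fractions was taken, and heavy minus light was tested on log2(mean CPM + 1) with limma in 1 fit over all 24 gradients. This main fit treated heavy and light means as separate samples and did not use their pairing within a gradient. The alternative with the gradient as a block uses it, and its calls differ as given for the stages below. CPM in every fraction are relative to that fraction's reads, so the difference compares shares of libraries and is not the share of a gene's molecules found in heavy fractions. Levels in fraction and transcriptome libraries were not tested against each other, since they differed widely for some members. Mcm5 in GV oocytes was at 63.8 ± 1.62 CPM in transcriptomes and at 944 ± 140 CPM in heavy fractions (SD, n = 3). Changes between stages could differ too. From 2-cell to 4-cell the mean of Cdt1 went from 196 to 349 CPM in heavy fractions and from 532 to 319 CPM in light ones. From GV to MII Gins2 was higher in light fractions, as given above. Rpa2 (235 to 44.7 CPM in heavy ones), Rfc2 (108 to 26 CPM) and Gins1 (45.7 to 16.2 CPM) were lower, as in transcriptomes. Of the rises given above with full statistics, that of Dbf4 was seen on both sides (130 to 176 CPM in heavy, 77.1 to 113 CPM in light ones). Gmnn was higher on neither (59.7 to 55.2 CPM and 33.7 to 16.5 CPM), nor was Mcm2 (140 to 137 CPM and 192 to 60.5 CPM). Pole2 went from 4.94 to 6.14 CPM in heavy and from 3.79 to 1.34 CPM in light ones. Orc6 went from 99.7 to 110 CPM and from 94.7 to 21.7 CPM. The cause was not tested. The spread between gradients was larger at the 2-cell, 4-cell and 8-cell stages than at the other 5. The members' median SD of the heavy log2 value was 0.29 in GV, 0.50 in MII, 0.46 in zygotes, 1.04 at 2-cell, 1.75 at 4-cell, 1.02 at 8-cell, 0.44 in morulae and 0.40 in blastocysts, and 37.2% of member values in fractions were 0 at the 2-cell stage, 35.3% at the 4-cell stage and 26.7% at the 8-cell stage, against 2.69% to 11.7% at the other stages.

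In zygotes many replication RNAs lay on the heavy side. Heavy exceeded light in all 3 gradients for 30 of 52 members, against 21.3% of 15172 genes, and for 27 members every heavy mean lay above every light mean, against 16.3%. The members' median difference was 1.03, and that of all genes -0.04. The fit over all stages called 5 members higher in heavy fractions and 1 lower (background 2.14% and 0.87%, together 3.01%). That fit gives each gene 1 spread for all stages, and fits on fewer stages, which change both the spread and the genes tested, gave other counts. Fitted on zygotes alone, 23 members were higher and 2 lower (13.2% and 5.23% of 11323 genes), and without the 2-cell and 4-cell gradients, an alternative added after the data were seen, 16 and 3 (6.89% and 3.44%). With the gradient as a block, 8 were higher and 2 lower.

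Orc6 in zygotes measured 143, 114 and 254 CPM in the heavy fractions of gradients A, B and C and 17.6, 8.76 and 12.2 CPM in their light ones, a difference of 3.59 on the log2 scale (SE 0.66, limma adjusted p = 0.00068). All heavy values lay above all light values, and the profile rose to 321 ± 109 CPM in fraction 9. Orc6 kept its call in all alternatives run (adjusted p 5.4e-06 to 0.045). Gmnn measured 57.4, 78.1 and 116 CPM against 11, 18 and 5.66 CPM, a difference of 2.83 (SE 0.53, limma adjusted p = 0.00095). Pole2 measured 14.2, 11.6 and 16.1 CPM against 0.513, 0 and 0.0595 CPM, a difference of 3.66 (SE 0.86, limma adjusted p = 0.0094). Mcm2 measured 92.2, 134 and 85 CPM against 19.4, 12.6 and 10.2 CPM, a difference of 2.82 (SE 0.80, limma adjusted p = 0.042). Pcna, the fifth called higher, measured 103, 72.4 and 103 CPM against 18.8, 14.1 and 16 CPM. In each of these 5 genes the lowest heavy value exceeded the highest light value.

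With 1 of the 3 gradients left out, most of these calls ended while the differences stayed large. Gmnn lost its zygote call without gradient C (2.17, adjusted p = 0.13; 1.2e-05 to 0.13 over all its alternatives). Pole2 lost it without any 1 of the 3, at differences of 3.49 to 3.83 (adjusted p 0.068 to 0.17). Mcm2 likewise lost it at 2.57 to 3.13 (0.14 to 0.31), and Pcna at 2.34 to 2.50 (0.063 to 0.13). Rfc2, the member called lower, measured 8.59, 36.9 and 8.21 CPM in heavy fractions and 34.1, 49.5 and 42.9 CPM in light ones, a difference of -1.51 (SE 0.42, limma adjusted p = 0.038). Its heavy value in gradient B lay above the light value in gradient A, and the call ended without gradient A (-1.33, adjusted p = 0.27) or C (-1.14, adjusted p = 0.53). The 4 polymerase delta genes were split: Pold3 had a difference of 1.44, while Pold1 (-2.33), Pold2 (-1.21) and Pold4 (-1.12) had negative ones, none of them called in the fit over all stages. With the gradient as a block Pold3 (limma adjusted p = 0.04) and Pold2 (0.029) were called, and without the 2-cell and 4-cell gradients Pold3 (0.0074), Pold2 (0.013) and Pold1 (0.015) were. All 3 were also called with zygotes fitted alone. Pold2 measured 186, 181 and 128 CPM in heavy against 417, 359 and 361 CPM in light ones, with no overlap. Both ribonucleotide reductase genes lay on the heavy side in all 3 gradients, Rrm2 with 74.2, 80.9 and 95.6 CPM against 23.9, 16.1 and 13.4 CPM. Neither was called in the fit over all stages. With zygotes fitted alone Rrm2 (limma adjusted p = 0.0013) and Rrm1 (0.027) were called, and without the 2-cell and 4-cell gradients Rrm2 was (0.0025).

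**Figure D3:**
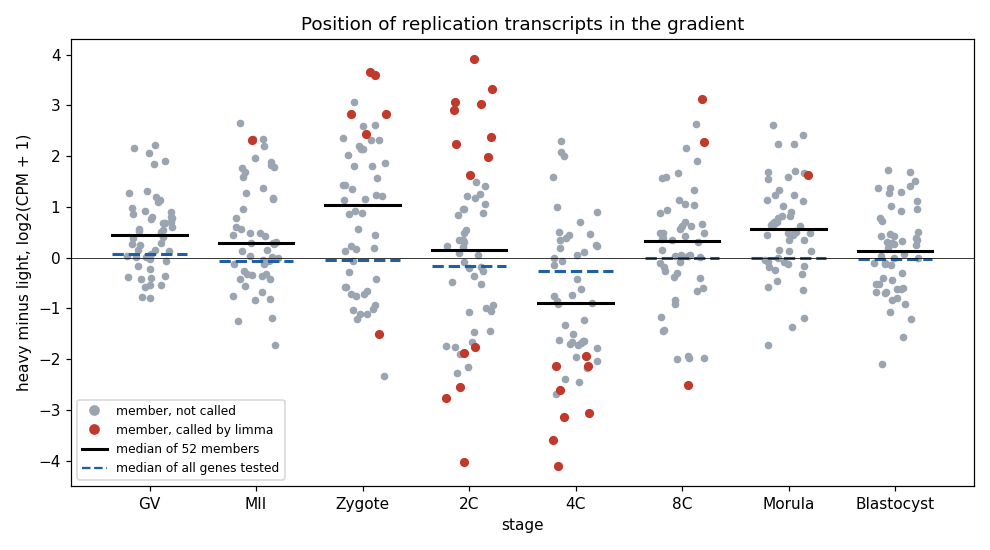
Heavy minus light difference of each of the 52 replication genes (points, log2(CPM + 1), mean of 3 gradients) at each stage, with called genes in red; the solid line is the members' median and the dashed line the median of all genes tested. The members' median is 1.03 in zygotes and -0.90 at the 4-cell stage.

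In GV oocytes limma called 0 members in the fit over all stages (background 0.0461% higher and 0.0264% lower, together 0.0725%), with 5 members at an unadjusted p under 0.05. Fitted on GV oocytes alone it called 4 higher and 0 lower (1.88% and 0.567% of 11644 genes): Orc2, Mcm8, Ticrr and Rfc1. Ticrr, which helps to load Cdc45, measured 194, 145 and 117 CPM in heavy fractions and 57.2, 28.5 and 35.9 CPM in light ones, without overlap. Heavy exceeded light in all 3 gradients for 24 of 52 members (background 26%).

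In MII eggs Orc6 was the 1 member called (background 1.71% higher and 1.52% lower, together 3.23%). It measured 117, 103 and 111 CPM in heavy fractions and 25.2, 22.6 and 17.4 CPM in light ones, a difference of 2.31 on the log2 scale (SE 0.66, limma adjusted p = 0.041), and its mean rose along the gradient from 9.89 ± 9.67 CPM in fraction 1 to 202 ± 32.4 CPM in fraction 10. The groups were far apart. Without gradient A, B or C the difference was 2.16 to 2.39 and no longer called (adjusted p = 0.19 to 0.32; 0.00046 to 0.32 over all its alternatives). Fitted on MII eggs alone, 14 of 51 tested members were higher and 3 lower (12.7% and 6.81% of 11314 genes), among them Orc6, Mcm4, Ticrr, Gmnn and Pcna, with adjusted p for Orc6 of 0.00046. Quantile normalization and the gradient block each called 3 higher and 1 lower, and the fit without 2-cell and 4-cell gradients 5 and 2. Mcm4 measured 64.4, 143 and 115 CPM in heavy against 28.1, 18.5 and 13.8 CPM in light ones, and Pcna 63.6, 54.9 and 42 CPM against 22.1, 11.3 and 12.6 CPM, neither with overlap. Heavy exceeded light in all 3 MII gradients for 19 members (background 21.5%).

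**Figure D4:**
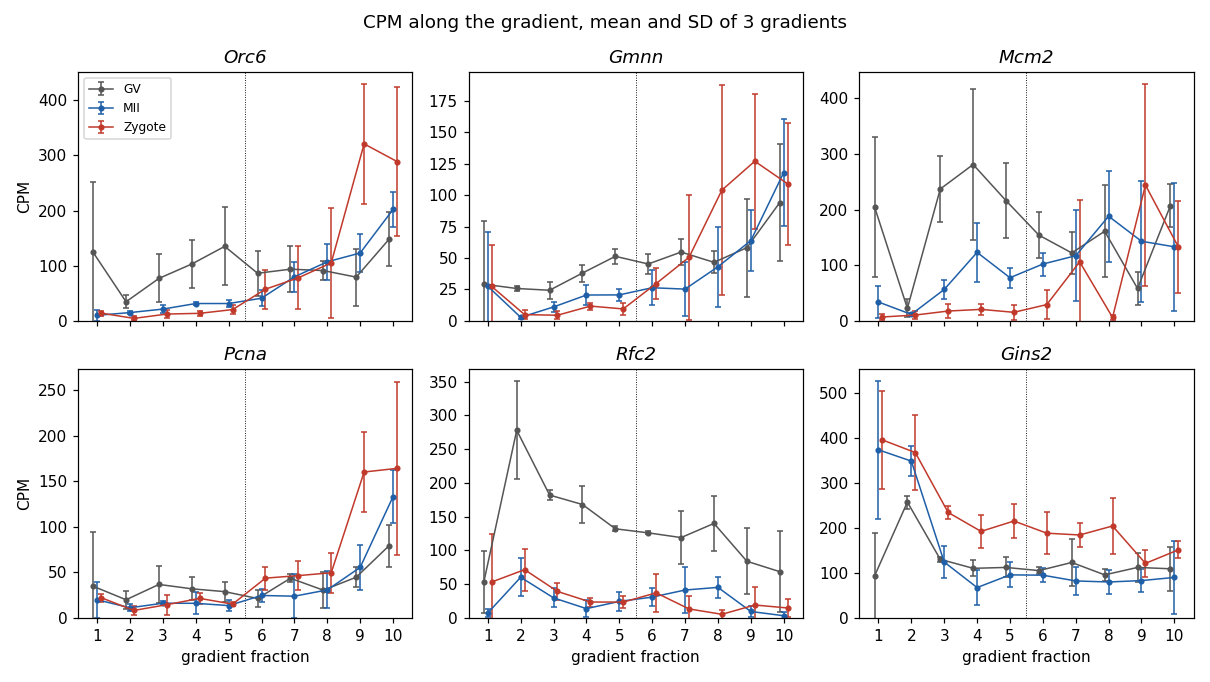
CPM of 6 replication genes along the 10 gradient fractions in GV oocytes (grey), MII eggs (blue) and zygotes (red); points are means and bars SDs of 3 gradients, and the dotted line separates light from heavy fractions. In MII eggs and zygotes Orc6, Gmnn and Pcna are highest in fractions 8 to 10 and Gins2 in fractions 1 and 2, and GV profiles of Orc6 are flatter.

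At the 2-cell stage 9 members were called higher in heavy fractions and 5 lower (background 6.43% and 11.8%, together 18.2%). Of the 6 origin recognition genes 4 were called higher, Orc2, Orc3, Orc4 and Orc6. Orc3, an ATPase-fold subunit, measured 24.9, 12 and 102 CPM in heavy fractions and 0.0444, 0.0501 and 8.36 CPM in light ones, a difference of 3.91 (SE 0.95, limma adjusted p = 0.003). Rrm2 measured 233, 274 and 467 CPM against 20.7, 21.1 and 60.7 CPM, a difference of 3.33 (SE 0.92, limma adjusted p = 0.0085). Both were without overlap. Orc4 (3.06, SE 1.06, limma adjusted p = 0.039) and Mcm6 (3.02, SE 0.87, limma adjusted p = 0.012) differed between gradients: Mcm6 measured 245, 47.6 and 56.7 CPM in heavy fractions and 0.326, 45.9 and 19.7 CPM in light ones, and its difference was 0.76 (adjusted p = 0.65) without gradient A. Cdc45, Orc2, Orc6, Pcna and Gmnn were the other 5 called higher.

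On the light side of the 2-cell gradients, Rfc3 measured 0.0607, 9.68 and 0 CPM in heavy fractions and 41.1, 24.4 and 45.2 CPM in light ones, a difference of -4.03 (SE 0.96, limma adjusted p = 0.0024). Pold4 was called too (-2.76, SE 0.52, limma adjusted p = 0.00016), at 0, 0.991 and 0 CPM against 6.19, 2.6 and 22.9 CPM. Gins1 differed by -2.56 (SE 0.88, limma adjusted p = 0.038) and Rfc2 by -1.89 (SE 0.42, limma adjusted p = 0.0014), the latter at 19.9, 44.5 and 47.4 CPM in heavy against 200, 144 and 79.7 CPM in light ones. With fraction 1 left out of the light side, the difference of Rfc2 was -1.09 and not called (limma adjusted p = 0.074). Cdt1, the fifth, measured 50.6, 246 and 291 CPM in heavy fractions and 425, 536 and 635 CPM in light ones, the opposite side to its inhibitor Gmnn (89.6, 99.4 and 160 CPM against 44.1, 16.3 and 64.3 CPM). Only Orc3 and Pold4 of the 14 kept their call without each 1 of the 3 gradients. Orc3 lost it with the mean of log2 values over fractions, at a difference of 0.85 (limma adjusted p = 0.34). Both lost it with the 2-cell stage fitted alone (limma adjusted p = 0.15 for Orc3 and 0.13 for Pold4). With the gradient as a block the 14 were called, and also Ticrr (1.25, limma adjusted p = 0.045), Pold3 (1.22, 0.032) and Pold2 (-1.77, 0.00036). Fitted on the 2-cell stage alone, Rrm2 was the 1 member called of 42 tested (background 0.809% higher and 1.09% lower of 9889 genes), and 12 had an unadjusted p under 0.05. With the mean of log2 values over fractions 1 member was higher and 9 lower.

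At the 4-cell stage 0 members were called higher and 8 lower in heavy fractions (background 3.4% and 12.9%, together 16.3%), and light exceeded heavy in all 3 gradients for 17 of 52 members (background 19.4%). Pola2 measured 6.95, 4.65 and 1.88 CPM in heavy fractions and 289, 125 and 16.7 CPM in light ones, a difference of -4.10 (SE 0.65, limma adjusted p = 1.9e-05), without overlap. Orc1 (-3.60, SE 0.99, limma adjusted p = 0.0092), Rpa1 (-3.14, SE 0.85, limma adjusted p = 0.0085) and Cdc45 (-3.06, SE 0.91, limma adjusted p = 0.016) followed. Rpa1 was at or near 0 in heavy fractions (0, 0.0195 and 0.0316 CPM), and its light values were 72.6, 7.99 and 0.0885 CPM. Mcm5, Ticrr, Pold1 and Rfc2 were the other 4. Pola2 and Rfc2 kept their calls without each 1 of the 3 gradients, while the other 6 ended without gradient A, where Mcm5 was left at -0.08 and Pold1 at -0.26 (from -2.13 and -2.62). With the gradient as a block Orc2 (2.30, limma adjusted p = 0.015) and Rfc5 (2.00, 0.026) were called higher and Mcm7 (-2.40, 0.033) lower, and Mcm5 and Pold1 were not called. Fitted on the 4-cell stage alone, limma called 0 of 8575 genes, with 3 of 44 tested members at an unadjusted p under 0.05. With quantile normalization, which moved the median of all genes from -0.26 to 0.04 here and from -0.16 to 0.04 at the 2-cell stage, 1 member was higher and 4 lower.

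At the 3 later stages the fit over all stages called 3, 1 and 0 members. At the 8-cell stage Rfc4 (50.1, 20.9 and 3.1 CPM in heavy, 1.31, 0 and 1.97 CPM in light ones; 3.13, SE 1.03, limma adjusted p = 0.048) and Orc5 (13.4, 53.6 and 12.8 CPM against 2.24, 2.22 and 8.07 CPM; 2.28, SE 0.66, limma adjusted p = 0.02) were higher in heavy fractions, where 2.43% of genes were. Rfc2 was lower (background 6.62%, 9.05% in either direction), at 46.9, 61.6 and 54.7 CPM against 290, 266 and 405 CPM, a difference of -2.52 (SE 0.42, limma adjusted p = 4.9e-05). The calls of Rfc4 (2.46 and 2.47) and Orc5 (2.35 and 1.38) ended without gradient A or B (adjusted p 0.074 to 0.37), and Rfc2 was the 1 member called when the 8-cell stage was fitted alone (0.395% of 9875 genes higher and 2.16% lower). With fraction 1 left out of the light side, the difference of Rfc2 was -0.98 and not called (limma adjusted p = 0.2). With the gradient as a block Lig1 was called lower too (limma adjusted p = 0.036). Without the 2-cell and 4-cell gradients 9 members were higher and 4 lower at the 8-cell stage (8.13% and 11% of 14967 genes), among them Orc4, Rfc3, Rpa2 and Gmnn on the heavy side and Rfc1 and Lig1 on the light side. In the morula Pold3 was called (58, 98 and 75.7 CPM against 26.2, 25.9 and 20.3 CPM; 1.62, SE 0.45, limma adjusted p = 0.019; background 1.64% higher and 4.17% lower), a call that ended without any 1 gradient, at differences of 1.48 to 1.86 (adjusted p 0.057 to 0.16). Fitted on morulae alone, 11 members were higher and 0 lower (8.26% and 6.43% of 10962 genes), without the 2-cell and 4-cell gradients 9 and 1 (6.33% and 6.88%), and heavy exceeded light in all 3 gradients for 26 members (background 24.6%). In the blastocyst limma called 0 members (0.633% and 2.11%, together 2.74%), with 1 at an unadjusted p under 0.05; fitted alone, 10 were higher and 2 lower (9.96% and 11.8% of 11130 genes), and without the 2-cell and 4-cell gradients 3 and 0 (2.89% and 4.19%). With the gradient as a block Pold2 was called (1.38, limma adjusted p = 0.011). Rpa2 there measured 365, 459 and 461 CPM in heavy fractions and 151, 121 and 123 CPM in light ones, and Rfc2 was on the heavy side, with 484, 441 and 428 CPM against 347, 369 and 319 CPM.

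The change of the heavy minus light difference between consecutive stages was tested with limma over the 24 gradients. Here the difference was taken within each gradient, so each gradient served as its own control. From GV to MII and from MII to zygote limma called 0 members (background 0.145% higher and 0.211% lower, together 0.356%, then 0% and 0.0198%), with 1 and 4 members at an unadjusted p under 0.05. Fitted on GV and MII gradients alone, the difference of Orc6 was larger in MII by 2.16 (adjusted p = 0.01; 1.31% of 12445 genes higher and 0.98% lower). In GV oocytes Orc6 measured 82.6, 92.7 and 124 CPM in heavy fractions and 53.4, 104 and 126 CPM in light ones, which overlapped, and in MII eggs the groups were apart. From MII to zygote the members' median change was 0.43 and that of all genes 0.03, and with the 2 stages alone in the fit limma also called 0 members, with 16 at an unadjusted p under 0.05.

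From zygote to 2-cell 0 members were called higher and 3 lower (2.08% and 3.3%): Pole2 (-3.86, SE 0.96, limma adjusted p = 0.021), Mcm8 (-3.61, SE 0.96, limma adjusted p = 0.03) and Cdt1 (-1.98, SE 0.50, limma adjusted p = 0.023). Pole2 at the 2-cell stage measured 0.0323, 4.76 and 6.23 CPM in heavy fractions and 0, 5.62 and 8.72 CPM in light ones, with light above heavy in gradients B and C. Each of the 3 calls ended without 1 of several gradients: Pole2 without zygote A, B or C (-3.68 to -4.03, adjusted p 0.053 to 0.082), Mcm8 without zygote A or C or 2-cell A (-2.55 to -3.76, adjusted p 0.075 to 0.15), and Cdt1 without zygote A or B or 2-cell A (-1.34 to -1.84, adjusted p 0.087 to 0.094). With zygote and 2-cell gradients alone in the fit limma called 0 members (0.00792% and 0.0712% of 12633 genes), with 9 at an unadjusted p under 0.05.

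From 2-cell to 4-cell 3 members were called higher and 11 lower (5.43% and 8.65%), and the members' median change was -1.04 against -0.12 for all genes. Cdc45 (-5.98, SE 1.24, limma adjusted p = 0.0028), Orc3 (-5.61, SE 1.22, limma adjusted p = 0.004), Rrm2 (-5.11, SE 0.93, limma adjusted p = 0.0011) and Mcm6 (-4.52, SE 1.27, limma adjusted p = 0.021) moved most to the light side. Rrm2 at the 4-cell stage measured 1.53, 374 and 204 CPM in heavy fractions and 81.4, 205 and 470 CPM in light ones, so 1 of 3 gradients had heavy above light. Pold4 (2.75, SE 0.82, limma adjusted p = 0.028), Pold2 (1.95, SE 0.44, limma adjusted p = 0.0053) and Cdt1 (1.81, SE 0.50, limma adjusted p = 0.019) moved the other way. Pold4 was at or near 0 on both sides at the 4-cell stage (at most 0.0221 CPM). With the mean of log2 values over fractions Cdt1 had a change of -0.05 and was not called. Orc3 (-1.39, limma adjusted p = 0.2), Mcm6 (-2.62, 0.13) and Pold4 (1.82, 0.052) also lost their calls there, while Cdc45, Rrm2 and Pold2 kept theirs. The calls of Mcm6, Cdt1 and Pold4 also ended without 2-cell gradient A (adjusted p 0.1, 0.098 and 0.054) or 4-cell gradient B (0.081, 0.061 and 0.05), and that of Pold4 without 2-cell gradient C (0.13). The calls of Rpa1, Gmnn, Pola2, Orc1 and Pold3 likewise ended without at least 1 gradient (adjusted p 0.052 to 0.14). With 2-cell and 4-cell gradients alone in the fit limma called 0 of 12290 genes, with 9 of 50 tested members at an unadjusted p under 0.05.

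From 4-cell to 8-cell, 8-cell to morula and morula to blastocyst limma called 0 members each (background 2.56% higher and 0.626% lower, 0.402% and 0.138%, and 0% and 0.0132%), with 20, 3 and 1 members at an unadjusted p under 0.05. Without 2-cell and 4-cell gradients in the fit Rfc2 was called from 8-cell to morula (2.33, adjusted p = 0.0062; 2.99% of 14967 genes higher and 1.53% lower). Rfc2 had light values far above its heavy values at the 8-cell stage, overlapping values in the morula (210, 362 and 217 CPM in heavy, 288, 322 and 266 CPM in light ones) and heavy above light in all 3 blastocyst gradients.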

How the data were processed

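Poly(A)-selected RNA was amplified with a Smart-seq2 kit and sequenced in paired-end mode, per the labels' protocols. The submitters' processing notes name Trim Galore 0.6.7, FastQC, HISAT2 2.2.1, featureCounts 2.0.1, edgeR and build GRCm39; the annotation and settings are not given in the sources used here. The authors deposited 1 table of CPM per gene symbol for 272 libraries. In 38 columns the deposited CPM sum to more than the scale allows, because 159 symbols in 76 groups repeat identical values; 9 of these columns were recorded as signal, the authors' scaling being the same. One symbol of each group was kept (15771 genes), and no member was affected. Whole reads were recovered for 100% of values within 0.05 reads. The 4 2-cell transcriptome columns carry letters E to H and were used as a group.

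Tests used limma 3.58.1 in R 4.3.3 with a pseudocount of 1, on genes that reached a CPM of 1 in at least the number of samples of the smallest group, and edgeR 4.0.16 on the recovered reads as an alternative. Full statistics are printed for called members only, at most the 4 largest in each direction, and of other lists for the 2 largest; values per library were chosen by role. The members and lists were chosen with earlier results of these data known. Heavy and light values of 1 gradient come from the same lysate, which makes the gradient a true pair. Their deviations from the group means correlated by 0.01 to 0.25. The main heavy against light fit left this pair out, and the gradient block included it. Alternatives were another pseudocount, no filter, quantile normalization, smaller fits, replicate blocks, other fraction cuts and leaving out each replicate. The scripts were tested on simulated data.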

Additional observations from a re-analysis of the deposited data

Results flagged for a closer look

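Of 70 groups of 4 transcriptome libraries tested for 1 value far from the others, 2 were flagged, and chance flags about 1 in 20 groups. Gins3 measured 118 CPM in 8-cell library C, below 137 to 141 CPM in the other 3, and Orc6 measured 187 CPM in morula library B, above 128 to 135 CPM in the other 3.

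The change of the heavy minus light difference between stages passed limma's test of that change for 17 results. From zygote to 2-cell it was -1.98 for Cdt1, -3.86 for Pole2 and -3.61 for Mcm8. From 2-cell to 4-cell it was -5.98 for Cdc45, -5.61 for Orc3, -5.11 for Rrm2, -4.52 for Mcm6, -4.45 for Orc1, -4.10 for Rpa1, -3.38 for Ticrr, -3.02 for Pola2, -2.39 for Orc6, -2.37 for Gmnn and -2.08 for Pold3, and 2.75 for Pold4, 1.95 for Pold2 and 1.81 for Cdt1. All 17 involve the 2-cell gradients, in which 37.2% of member values were 0, and none was called with the stages compared alone in the fit; the part of the zero values in these results was not tested.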

How the results depend on the processing

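Of 39 transcriptome results printed with full statistics 33 kept their call in every alternative run; of 22 heavy against light results 1 did (Orc6 in zygotes), and of 10 changes between stages 0 did. None but 1 changed sign: the change of Cdt1 from 2-cell to 4-cell was -0.05 with the mean of log2 values over fractions. The cause was not tested.

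Counts of called members (all directions) that moved by over 1.5 times were as follows. From morula to blastocyst edgeR called 12 members in place of 6. For heavy against light, the MII count of 1 became 0 with a pseudocount of 0.1, 2 without the filter, 4 with quantile normalization, with the gradient as a replicate block or with fractions 7 to 10 against 1 to 4, 6 with the mean of log2 values, 17 with MII fitted alone and 7 without 2-cell and 4-cell gradients. The zygote count of 6 became 10 with the replicate block, 11 with the mean of log2 values, 25 fitted alone and 19 without 2-cell and 4-cell gradients. The GV count of 0 became 3, 4 and 1 under the last 3 of these. The 2-cell count of 14 became 1 fitted alone, and the 4-cell count of 8 became 0 fitted alone and 5 with quantile normalization. The 8-cell count of 3 became 6 with fractions 7 to 10 against 1 to 4, 5 with the mean of log2 values, 1 fitted alone and 13 without 2-cell and 4-cell gradients. The morula count of 1 became 0 with quantile normalization and 2, 7, 11 and 10 under those same 4. The blastocyst count of 0 became 1 with the block, 12 fitted alone and 3 without 2-cell and 4-cell gradients.

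For the change between stages, the 2-cell to 4-cell count of 14 became 6 with the mean of log2 values and 0 with the 2 stages alone, and that of 3 from zygote to 2-cell became 0 with the 2 stages alone. The 4-cell to 8-cell count of 0 became 1 with a pseudocount of 0.1, 2 with fractions 7 to 10 against 1 to 4 and 5 with the mean of log2 values. From GV to MII 0 became 1 with the stages alone or without 2-cell and 4-cell gradients, and from 8-cell to morula 0 became 1 without those gradients.

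With 1 replicate left out, counts ranged from 29 to 32 (2-cell to 4-cell), 21 to 23 (GV to MII), 5 to 6 (MII to zygote), 18 to 18 (zygote to 2-cell), 0 to 1 (4-cell to 8-cell), 3 to 5 (8-cell to morula) and 5 to 8 (morula to blastocyst) in transcriptomes; in heavy against light they were 0 in GV, MII, morula and blastocyst, 1 to 3 in zygotes, 8 to 13 at 2-cell, 5 to 16 at 4-cell and 2 to 4 at 8-cell; and in changes between stages 0 to 5 (zygote to 2-cell), 10 to 16 (2-cell to 4-cell), 0 to 10 (4-cell to 8-cell) and 0 in the other 4. Replicate letters across stages share only a name: deviations of same-lettered libraries correlated by -0.18 to 0.17 in transcriptomes and -0.05 to 0.06 in gradient differences, and with the letter as a replicate block the counts were 22, 6, 0, 4 and 6 in the 5 transcriptome steps without 2-cell libraries and 3 and 14 in the gradient steps from zygote to 2-cell and on to 4-cell. No paired analysis was possible because of other letters on the 2-cell columns in the 2 remaining transcriptome steps. Blocking by gradient also called 17, 9 and 4 members at 2-cell, 4-cell and 8-cell. Fits on fewer stages changed both the shared spread and the genes tested. Low read totals limit the precision of fraction 1 of GV gradients A and B and of 4-cell gradient A.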
